A study of Capra hircus with 2 samples.

Results

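Small germ cell droplets are cell barcodes of fetal goat ovary that carry germ cell transcripts and a total transcript count below a set limit. They were chosen by a rule on measured values. A barcode needed at least 500 genes detected, fewer than 20000 unique molecular identifiers (UMIs, each tagging 1 captured transcript), UMIs of at least 2 of the 6 germ cell genes FIGLA, DDX4, DAZL, MAEL, LHX8 and REC8, and at least 1 UMI of these 6 genes per 1000 UMIs. The rule found 98 of 8346 barcodes (1.17%, exact binomial 95% interval 0.954 to 1.43) in the E125 library and 53 of 4397 (1.21%, 0.904 to 1.57) in the E85 library, 151 of 12743 in all. The same marker rule at 20000 or more UMIs gave 77 large germ cell droplets at E125 and 22 at E85. The other 7470 barcodes at E125 and 3953 at E85 with at least 500 genes are called the other barcodes of their library.

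Each stage is 1 library of ovary cells from female goat (Capra hircus) fetuses of the embryonic day in its name (E125 or E85), made with a 10x Genomics droplet kit, and no strain, treatment or number of animals is given. Variation between animals cannot be seen with a single library of each stage, and no test was therefore made: the differences given are those of these 2 libraries. The intervals printed here are exact 95% intervals that cover counting error only. Stage and library cannot be told apart.

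Female germ cells enter meiosis in the fetal ovary, pair and recombine their chromosomes inside the synaptonemal complex, and then arrest as oocytes that somatic pregranulosa cells enclose in primordial follicles. Germ cells of the meiotic stages carry piRNA pathway proteins, which keep transposons silent with small RNAs. Oocytes in follicles make the zona pellucida glycoproteins of the egg coat, and store maternal effect proteins used by the early embryo. FIGLA is a transcription factor needed for zona gene expression and follicle formation in the mouse, and LHX8 is a transcription factor of early oocytes. DDX4 is an RNA helicase of germ granules, DAZL an RNA-binding translation regulator, MAEL a piRNA pathway protein, and REC8 a meiotic cohesin subunit.

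The small germ cell droplets held 273373 UMIs in all at E125, 0.550% of the library, and 264655 at E85, 1.49%. At E125 they had 677 to 18088 UMIs with a median of 1886, against a median of 127644 in large germ cell droplets and 3239 in other barcodes. At E85 they had 743 to 19062 UMIs with a median of 3551, against medians of 56360.5 in large germ cell droplets and 3127 in other barcodes. The median share of UMIs from the 13 mitochondrial genes was 2.91% at E125, against 2.21% in large droplets and 3.41% in other barcodes. At E85 it was 8.09%, against 5.43% in large droplets and 4.13% in other barcodes. More than 20% mitochondrial UMIs were found in 4 members at E125 and 12 at E85. The 10 largest members supplied 38.6% of member UMIs at E125 and 46.9% at E85. The libraries shared 13 barcode sequences, and 0 of these were members.

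The 6 genes of the rule chose the members, so their values are a description. FIGLA was detected in 90.8% of members at E125 and 60.4% at E85. MAEL was detected in 46.9% at E125 and 73.6% at E85, and DDX4 in 28.6% at E125 and 56.6% at E85. In UMIs summed over the droplets of a group and scaled to 1e+06 (CPM), FIGLA stood at 1986 in small droplets, 3603 in large droplets and 26.1 in other barcodes at E125, and at 419, 755 and 10.5 in the same 3 groups at E85. DDX4 stood at 183, 110 and 2.54 CPM in small droplets, large droplets and other barcodes at E125, and at 404, 354 and 7.25 CPM at E85. REC8 stood at 465, 781 and 11.4 CPM at E125 and at 412, 964 and 15.6 CPM at E85. MAEL stood at 333, 364 and 7.15 CPM at E125 and at 393, 402 and 9.30 CPM at E85. LHX8 stood at 556, 636 and 7.98 CPM at E125 and at 276, 609 and 4.75 CPM at E85, and DAZL at 80.5, 102 and 1.84 CPM at E125 and at 170, 236 and 5.07 CPM at E85.

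Many members sat near the lower limits of the rule. At E125, 52 members had 2 of the 6 genes and 6 had all 6, and 22 members rested on 2 marker UMIs in total. At E85, 18 members had 2 of the 6 genes and 2 had all 6, and 4 rested on 2 marker UMIs. A marker sum of 1 to 1.5 per 1000 UMIs was found in 18 members at E125 and 14 at E85, while 59 barcodes at E125 and 57 at E85 with 2 or more markers lay at 0.5 to 1 per 1000, just outside. The lowest member was at 1.01 per 1000 and the highest barcode below the limit at 0.993 at E125, and these were 1.02 and 0.985 at E85. In UMIs, the largest member had 18088 and the smallest large droplet 22029 at E125, and 19062 and 21059 at E85, so no germ cell droplet lay between those values.

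Whether the droplets carried other germ cell transcripts was asked with 45 germ line genes that the rule did not use, such as those of the synaptonemal complex, the piRNA pathway and the oocyte cytoplasm. At E125, 74 of 98 members (75.5%, 65.8 to 83.6) had a UMI of these genes, so 24 small droplets carried the markers and none of the 45 genes. At E85, 52 of 53 (98.1%) had one. The other barcodes, at median depths of 3239 and 3127 UMIs, had one in 63.5% at E125 and 58.7% at E85. After each droplet was thinned to 1000 UMIs, with shallower droplets left out, the share was 71.4% of 84 small droplets (60.5 to 80.8; 14 left out), 98.7% of 77 large droplets and 29.1% of 7262 other barcodes at E125. It was 96.2% of 52 small droplets (1 left out), 100% of 22 large droplets and 26.1% of 3891 other barcodes at E85. At least 2 of the 45 genes were seen at that depth in 52.4% of small droplets, 87.0% of large droplets and 3.39% of other barcodes at E125, and in 84.6%, 100% and 3.78% at E85. For the 24 members at E125 and the 1 at E85 with none of these transcripts, the 45 genes add nothing to the name germ cell. Some of the 24 carried the egg coat gene ZP3, which is not among the 45. A member of 1048 UMIs had 10.5 ZP3 UMIs per 1000, the 1 of the 24 at 5 or more, and the other 23 lay under 5. UMIs of the stromal marker genes named below were found in 17 of the 24.

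Per 1000 UMIs, the 45 genes gave 0 to 13.0 with a median of 2.25 in small droplets at E125, against 0.990 to 5.68 with a median of 4.10 in large droplets and a median of 0.269 in other barcodes. At E85 they gave 0 to 13.4 with a median of 4.35 in small droplets, against 3.74 to 11.5 with a median of 5.62 in large droplets and a median of 0.237 in other barcodes. The wider range of the small droplets is not read, because their few UMIs widen it. Thinned to 1000 UMIs, small droplets ran from 0 to 12 and large ones from 0 to 11 at E125. At E85 they ran from 0 to 16 and from 2 to 11. The groups overlapped at both stages.

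**Figure D1:**
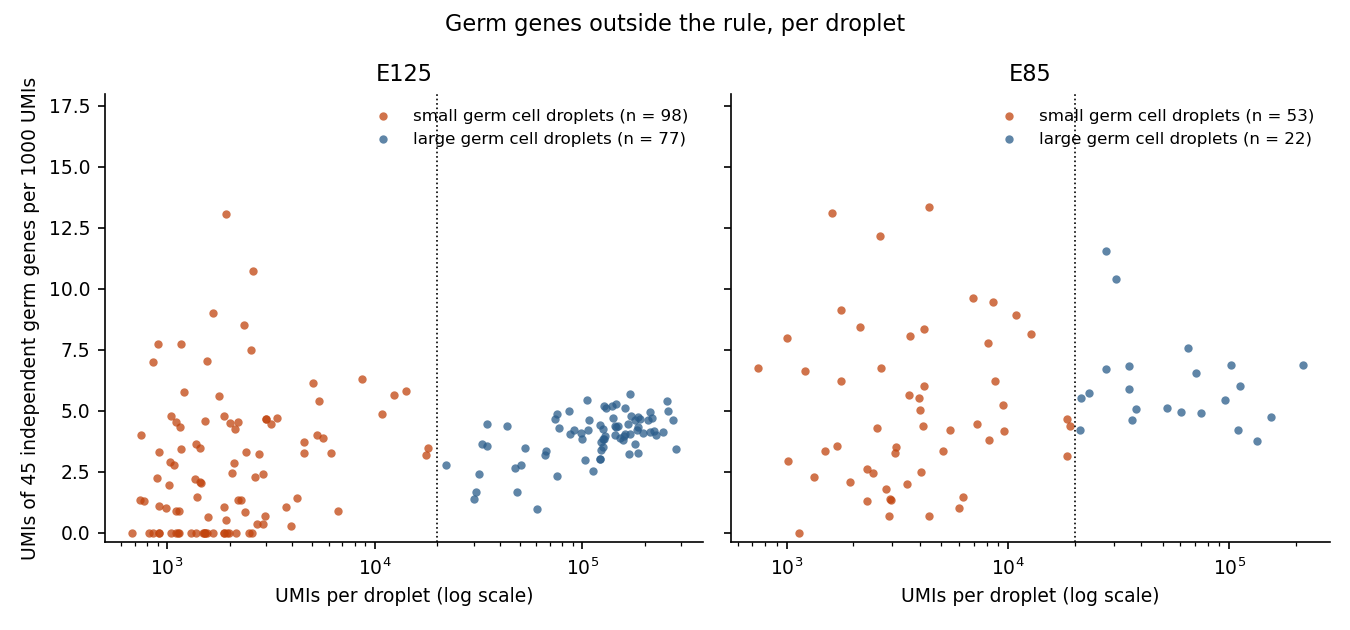
UMIs per droplet (log axis) against UMIs of 45 germ line genes outside the rule per 1000 UMIs, for small and large germ cell droplets, with E125 on the left and E85 on the right; each point is 1 droplet and the dotted line marks 20000 UMIs. Small droplets spread from 0 to 13.0 per 1000 at E125 and from 0 to 13.4 at E85, and the large droplets lie within 0.990 to 5.68 and 3.74 to 11.5. Droplets are not thinned, and the few UMIs of small droplets widen their spread.

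Against the other barcodes of their library, the small droplets were rich in transcripts of the egg coat, of the oocyte cytoplasm and of the piRNA pathway. Zona pellucida genes summed to 6665 CPM in small droplets and 131 CPM in other barcodes at E125, a ratio of 50.8. The same genes summed to 6004 CPM in small droplets and 148 CPM in other barcodes at E85, a ratio of 40.5. ZP3, the zona protein that binds sperm in the mouse, gave 5399 CPM in small droplets, 9532 in large droplets and 107 in other barcodes at E125, and 4969, 9113 and 131 CPM at E85. ZP4, another egg coat protein, gave 1043, 1630 and 18.4 CPM in these groups at E125 and 907, 1442 and 15.0 CPM at E85. ZP2, to which sperm also bind, gave 212, 341 and 5.34 CPM at E125 and 117, 269 and 2.18 CPM at E85. In each of these 3 genes the small droplets lay between the large droplets and the other barcodes.

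A share of the other barcodes also carried egg coat transcripts. Unthinned, ZP3 was detected in 75.5% of small droplets, 100% of large droplets and 34.1% of other barcodes at E125, at median depths of 1886, 127644 and 3239 UMIs. Thinned to 1000 UMIs, the shares were 72.6%, 100% and 12.4% at E125. ZP4 was seen at that depth in 33.3% of small droplets, 68.8% of large droplets and 2.00% of other barcodes. At E85, ZP3 was detected unthinned in 88.7% of small droplets, 95.5% of large droplets and 13.3% of other barcodes. At 5 or more ZP3 UMIs per 1000 there were 8 other barcodes (0.107%) at E125 and 9 (0.228%) at E85, which did not meet the marker rule.

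A gene was counted as measured with 50 or more UMIs over both groups, and as higher or lower at 2-fold. Groups at 3 UMIs or fewer were set to 3. At E125, 2824 of 11597 measured genes (24.4%) were higher in small droplets than in other barcodes and 987 (8.51%) lower, with a median log2 ratio of 0.00. At E85, 1581 of 9511 (16.6%) were higher and 1435 (15.1%) lower, with a median of 0.00. These shares depended on the depth asked of a gene and on scaling. Where a gene was required to have 10 UMIs in the smaller group at the pooled level, 479 of 3383 genes (14.2%) were higher and 672 (19.9%) lower at E125, and 341 of 3011 (11.3%) higher and 954 (31.7%) lower at E85. The higher genes made up 74.1% of the calls at E125 as reported, 57.2% with edgeR's TMM totals and 60.8% with DESeq2's size factors, and these scalings moved the log2 ratios at E125 by -0.31 and -0.25.

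Among all 45 germ line genes outside the rule, 20 were measured at each stage. Of these, 14 were higher and 0 lower at E125, with a median log2 ratio of 2.15, and 18 were higher and 0 lower at E85, with a median of 4.33. A gene rare in other barcodes could reach 50 UMIs only through the small droplets, so these counts describe the list and support nothing. The piRNA list summed to 691 CPM in small droplets and 46.5 CPM in other barcodes at E125, a ratio of 14.9, with 7 of 8 measured genes higher. It summed to 1923 and 65.6 CPM at E85, a ratio of 29.3, with 6 of 8 higher. The oocyte cytoplasm list summed to 3391 CPM in small droplets and 304 CPM in other barcodes at E125 (ratio 11.2, 13 of 14 higher) and to 1749 and 262 CPM at E85 (ratio 6.67, 6 of 7 higher). Synaptonemal complex genes summed to 245 and 51.1 CPM at E125, where SYCP1 was at 14.6 CPM in small droplets and 19.5 CPM in other barcodes. They summed to 487 and 31.7 CPM at E85, where 3 of 3 measured genes were higher. STRA8, a retinoic acid target needed for meiotic entry in the mouse, had 0 UMIs in the small droplets of both stages. In these droplets 3 UMIs would stand at 11.0 CPM at E125 and 11.3 CPM at E85.

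The genes with the highest ratios are named by stage. A gene with under 50 UMIs in other barcodes could be ranked only through its UMIs in small droplets. These ranks are thus partly set by the limit of 50 UMIs for a measured gene. At E125 they included IZUMO1R, the egg receptor for the sperm protein IZUMO1, with 501 CPM in small droplets and 4.90 CPM in other barcodes (ratio 102, 81.5 to 128). H1-8, the oocyte linker histone, had 446 CPM against 5.54 CPM (ratio 80.5, 63.9 to 101). NPM2, a histone chaperone of the egg, had 245 CPM against 3.24 CPM. PADI6, a protein of the egg's cytoplasmic lattices, had 102 CPM against 1.11 CPM, a ratio of 91.9. The cyclin gene CCNO had 475.5 CPM against 6.79 CPM. The other genes of this rank were B3GNT4, TTC9B, LHX1, TMEM233, ABCC2, SLC47A2, NKX1-1, CRYBB2, NPTX2 and ALPK2, at ratios from 70.6 to 119.8.

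At E85 the highest 4 ratios were those of piRNA pathway genes. RNF17, PIWIL1 and TDRD1 had 39, 26 and 42 UMIs in other barcodes. They reached the 50 UMIs of a measured gene only with the small droplets, which partly sets their rank. TDRD15 had 149 UMIs in other barcodes and did not depend on this. RNF17, a tudor domain protein of germ granules, had 242 CPM in small droplets and 2.50 CPM in other barcodes (ratio 96.7, 63.9 to 148). PIWIL1, a PIWI protein that binds piRNAs, had 159 CPM against 1.67 CPM, a ratio of 95.2. TDRD15 had 786 CPM against 9.56 CPM and TDRD1, a tudor scaffold of piRNA loading, 219 CPM against 2.69 CPM. STK31, a tudor and kinase domain protein of germ cells, had 1115 CPM against 17.9 CPM (ratio 62.3, 52.7 to 73.6). The testis and germ cell genes RBM44, RBM46 and BRDT had ratios of 78.1, 54.0 and 58.9. NEB, which encodes the muscle protein nebulin, had 975 CPM against 12.5 CPM, and the other genes of this rank were SLC47A2, SHOX2, ZP4, KPNA7, ZP2 and CHL1, at 53.0 to 73.1.

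Genes of somatic cells were among the lowest in the small droplets. At E125, CCL21, a lymphatic chemokine, had 7.32 CPM (2 UMIs) in small droplets and 648 CPM in other barcodes, 88.5 times lower (24.5 to 731). FST, the follistatin gene of pregranulosa cells, had 14.6 CPM against 302 CPM, 20.7 times lower, and the endothelial genes LMO2, CA4 and FLI1 were 16.3, 12.9 and 7.96 times lower. At E85, SPARCL1, a matrix protein of stroma and vessels, had 11.3 CPM (3 UMIs) against 263 CPM, 23.2 times lower (7.95 to 113). NR2F2, a transcription factor of stroma, had 30.2 CPM against 494 CPM, and VCAN and ACTA2 were 12.3 and 12.1 times lower.

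Markers of other cell types were nevertheless present. The 7 stromal markers (DCN, LUM, PDGFRA, COL1A1, COL1A2, TCF21 and POSTN, all of them detected) gave 0 to 17.5 UMIs per 1000 in small droplets and 0.0133 to 0.518 in large droplets at E125, against 0 to 72.1 in other barcodes. They summed to 1595 CPM in small droplets, 123 CPM in large droplets and 3439 CPM in other barcodes. At E85 they gave 0 to 4.70 per 1000 in small droplets, 0 to 0.312 in large droplets and 0 to 53.6 in other barcodes, and summed to 691, 89.6 and 3652 CPM. Stromal UMIs were found in 47 of 98 small droplets (48.0%) at E125 and in 24 of 53 (45.3%) at E85. The 9 pregranulosa markers summed to 238, 121 and 978 CPM in small droplets, large droplets and other barcodes at E125, where AMHR2, GATA4 and IHH were at 0 in small droplets, and to 68.0, 64.3 and 450 CPM at E85, where AMH, FST and IRX3 were at 0 as well. Per droplet they reached 3.27 per 1000 UMIs in small droplets, 0.599 in large droplets and 28.9 in other barcodes at E125, and 0.984, 0.284 and 5.92 at E85. The endothelial list summed to 76.8 CPM in small droplets and 464 CPM in other barcodes at E125, and the myeloid list to 40.2 and 119.7 CPM, with EGFL7, C1QC, CD14 and TYROBP at 0 in small droplets. At E125 2 lists of other cells lay above the other barcodes. The surface epithelium list summed to 271 CPM in small droplets, 440.4 CPM in large droplets and 70.7 CPM in other barcodes, a ratio of 3.83 between small droplets and other barcodes, with LRRN4 and UPK1B at 0 in small droplets. The steroidogenic list summed to 146, 141 and 20.6 CPM in the same groups, a ratio of 7.11 (5.04 to 9.77). At E85 the surface epithelium list summed to 30.2, 151 and 121 CPM and the steroidogenic list to 7.56 (2 UMIs), 66.9 and 12.0 CPM. At E85 the endothelial and myeloid lists each had 2 UMIs in the small droplets, with 5 of 6 endothelial and 6 of 7 myeloid markers at 0. The part of somatic transcripts in the results was not tested, except where droplets with and without them are set apart.

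Small and large germ cell droplets of 1 library were then compared. At E125, 1404 of 8623 measured genes (16.3%) were higher in small droplets and 343 (3.98%) lower, with a median log2 ratio of 0.09. At E85, 121 of 4234 (2.86%) were higher and 1023 (24.2%) lower, with a median of -0.48. With 10 UMIs asked in the smaller group at the pooled level, 5.21% were higher and 6.06% lower at E125, and 2.57% higher and 22.8% lower at E85. The split also moved with scaling. The higher genes made up 80.4% of the calls at E125 and 69.2% with TMM totals, which moved log2 ratios by -0.13. At E85 they made up 10.6% of the calls, but 45.9% with TMM totals and 43.5% with DESeq2's size factors, which moved log2 ratios by 0.49 and 0.48.

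In summed UMIs, the egg coat and oocyte cytoplasm lists were lower in small than in large droplets under all 3 scalings at both stages, and the piRNA list was higher. Zona genes summed to 6665 CPM in small and 11518 CPM in large droplets at E125 (ratio 0.58, 0.552 to 0.606; 0.53 with both other scalings) and to 6004 and 10832 CPM at E85 (ratio 0.55; 0.78 with TMM totals and 0.77 with DESeq2's size factors). Oocyte cytoplasm genes summed to 3391 and 4689.7 CPM at E125 (ratio 0.72), with 0 of 17 measured genes higher and 3 lower, and to 1749 and 3814 CPM at E85 (ratio 0.46, 0.416 to 0.504), with 0 of 12 higher and 9 lower. piRNA genes summed to 691 and 531 CPM at E125 (ratio 1.30), with 2 of 16 higher and 1 lower, and to 1923 and 1359 CPM at E85 (ratio 1.42, 1.28 to 1.56), where 0 of 13 genes were higher at 2-fold and 2 were lower. The medians over droplets stood the other way: per 1000 UMIs the piRNA list had a median of 0 in small and 0.489 in large droplets at E125, and of 0.755 and 1.26 at E85. At E125 a single UMI in a small droplet of median depth exceeds the median of the large droplets, so that order is not read. At E85, 1 small droplet held 37.5% of the UMIs of TDRD15. The synaptonemal complex list had ratios of 0.83 at E125 and 1.00 at E85, and the E85 ratio was 1.40 with TMM totals.

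Among single genes, TLE6, a maternal effect gene, had 15.1 CPM in small and 117.5 CPM in large droplets at E85, 7.77 times lower (2.98 to 28.8). CCNO had 52.9 CPM in small and 361 CPM in large droplets at E85, 6.82 times lower (4.03 to 12.6). UCHL1, a ubiquitin hydrolase abundant in oocytes, had 1079 CPM in small and 1537 CPM in large droplets at E125, and 574 and 1450.0 CPM at E85. TDRD15 had 194 CPM in small and 136 CPM in large droplets at E125, and 786 and 447 CPM at E85. SMC1B, a meiotic cohesin subunit, had 157 and 254 CPM at E125 and 472 and 336 CPM at E85, so its order differed between the libraries. At E125, CFD, the complement factor D gene, was lower in small droplets, with 36.6 CPM against 143 CPM in large droplets (3.92 times lower, 2.13 to 8.19).

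Genes of stroma were among those furthest above the large droplets. At E125, MGP, a matrix protein, had 490 CPM in small droplets, 5.39 CPM in large droplets and 851 CPM in other barcodes, a ratio of 90.9 (66.0 to 127) between the germ cell droplets. The collagen genes COL1A1 and COL1A2 had ratios of 56.6 and 49.8. PTN, a secreted growth factor, had 980 CPM in small and 28.1 CPM in large droplets at E125, and 234 and 38.9 CPM at E85. The E85 genes at the top were CLEC3B with 272 CPM in small and 13.0 CPM in large droplets and TCF21, a stromal transcription factor, with 181 and 9.09 CPM. The mitochondrial genes summed to 6.74% of UMIs in small and 2.74% in large droplets at E125 and to 15.0% and 4.95% at E85. The part of stromal and mitochondrial transcripts in the ratios of other genes was not tested.

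**Figure D2:**
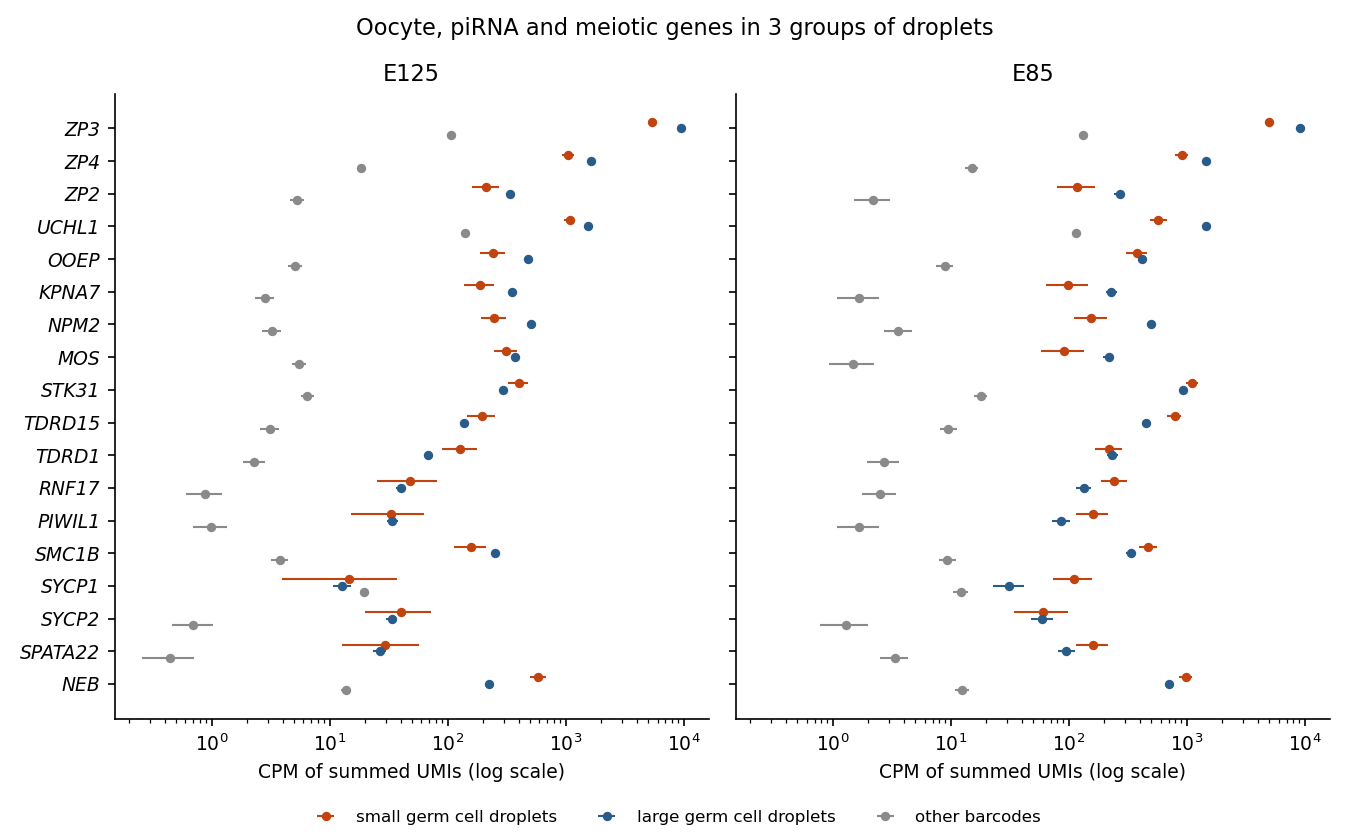
CPM of summed UMIs (log axis) of 18 germ line genes in small germ cell droplets, large germ cell droplets and other barcodes, E125 on the left and E85 on the right; bars are exact Poisson 95% intervals, which cover counting error only. ZP3 stands at 5399, 9532 and 107 CPM at E125 and at 4969, 9113 and 131 CPM at E85, and SYCP1 at E125 is the gene whose small droplets lie below other barcodes.

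The small droplets were not alike among themselves. They were divided at 5 ZP3 UMIs per 1000, a limit chosen after the values were seen, so what follows is a description. At E125, 39 of 98 small droplets (39.8%) and 64 of 77 large droplets were at or above the limit. At E85, 22 of 53 small droplets (41.5%) were at or above it and 31 below, and 11 and 11 of the 22 large droplets. The summed zona genes ran from 0 to 20.4 UMIs per 1000 in E125 small droplets with a median of 4.22, and from 0 to 32.5 with a median of 2.07 in E85 small droplets. REC8 and DDX4, given next, are genes of the rule, which asks for 2 of its 6 genes in every droplet of either size.

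At E85 the ZP3-rich and ZP3-poor droplets differed in egg coat genes other than ZP3 and in REC8, in small and in large droplets alike. ZP4 was at 2625 CPM in ZP3-rich and 11.5 CPM in ZP3-poor small droplets. In large droplets it was at 2027 CPM in ZP3-rich and at 0 UMIs in ZP3-poor ones, with an exact upper limit of 8.29 CPM. REC8 was at 1048 CPM in ZP3-rich and 80.5 CPM in ZP3-poor small droplets, and at 1297 and 144 CPM in large droplets. REC8 was seen in 18 of the 22 ZP3-rich and 6 of the 31 ZP3-poor small droplets, and ZP4 in 16 and 2. KPNA7, an importin of oocytes and early embryos, was at 254 and 17.2 CPM in small droplets, and at 295 and 67.4 CPM in large droplets.

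Unlike the meiotic cohesin gene REC8, some genes of meiosis, of the piRNA pathway and of germ cell RNA regulation stood the other way round at E85. STK31 was at 441 CPM in ZP3-rich and 1465 CPM in ZP3-poor small droplets, and at 829 and 1194 CPM in large droplets. TDRD15 was at 199 and 1092 CPM in small droplets and at 333 and 726 CPM in large droplets. PIWIL1 was at 55.2 and 213 CPM in small droplets and at 76.6 and 108 CPM in large droplets. Its intervals in large droplets overlapped (61.1 to 94.9 and 79.6 to 143). SPATA22, a partner of meiotic recombination, was at 66.2 and 207 CPM in small droplets and at 62.0 and 178 CPM in large droplets. DDX4 was at 132 and 546 CPM in small droplets and at 276 and 544 CPM in large droplets. NEB was at 452 and 1247 CPM in small droplets but at 729 and 659 CPM in large droplets, so its order was not shared.

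Summed lists were divided in the same way. In E85 small droplets the piRNA list was at 871 CPM in ZP3-rich and 2471 CPM in ZP3-poor droplets, the synaptonemal complex list at 254 and 609 CPM, and the oocyte cytoplasm list at 2923 and 1138 CPM. Large droplets gave 1124 and 1938 CPM, 393 and 726 CPM, and 4627 and 1809.9 CPM for the same 3 lists. The recombination list did not share an order at E85, with 927 CPM in ZP3-rich and 1299 CPM in ZP3-poor small droplets, against 1596 and 1540.1 CPM in large droplets. In E125 small droplets the piRNA list was at 775 CPM in ZP3-rich and 606 CPM in ZP3-poor droplets, against 507 and 814 CPM in large droplets, so its order was not shared by the sizes. The synaptonemal complex list was at 304 and 185 CPM in E125 small droplets, the opposite of its order at E85. REC8 was at 543 and 384 CPM and the oocyte cytoplasm list at 4760.0 and 1995 CPM in E125 small droplets.

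**Figure D3:**
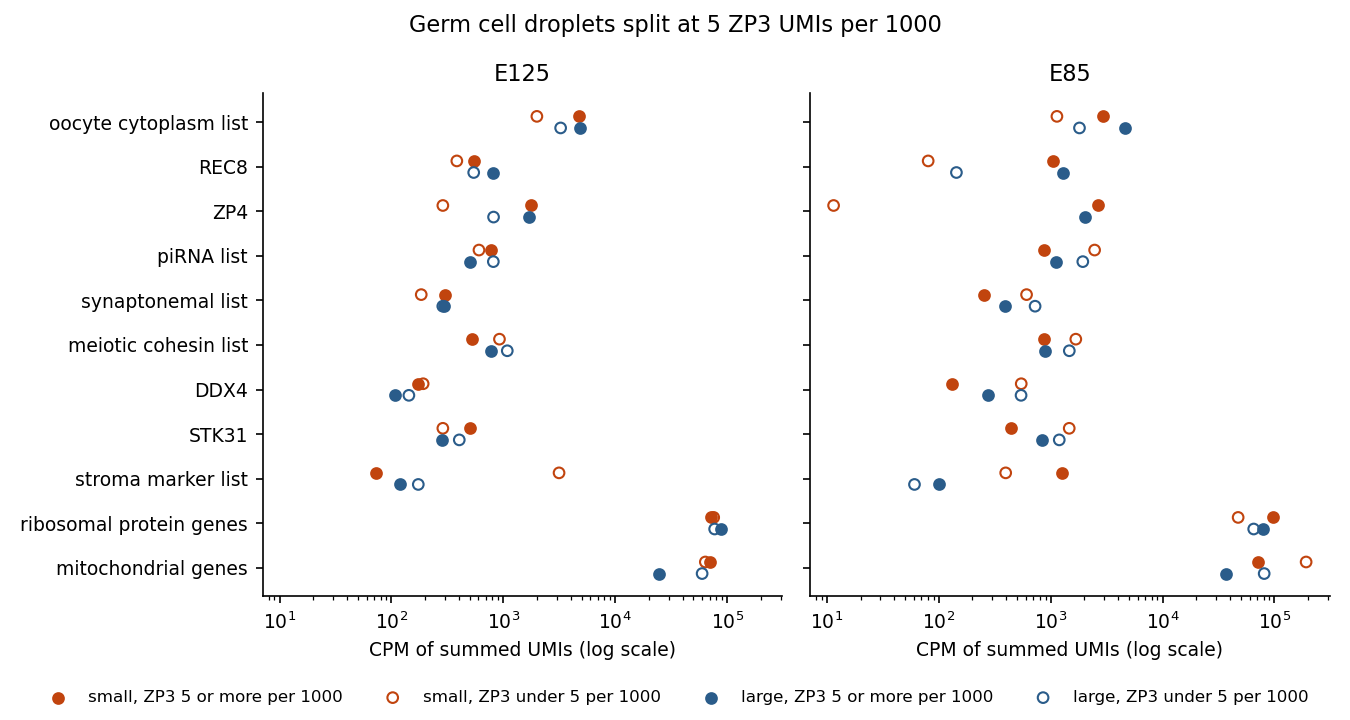
CPM of summed UMIs (log axis) of germ line lists and genes in small and large germ cell droplets with 5 or more (filled) or under 5 (open) ZP3 UMIs per 1000, E125 on the left and E85 on the right. At E85, REC8 and ZP4 lie far apart in both sizes of droplet, at 1048 and 80.5 CPM and at 2625 and 11.5 CPM in small droplets; ZP4 in ZP3-poor large droplets is at 0 and is not drawn.

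Other properties of the droplets moved with ZP3. At E85 the median mitochondrial share was 1.29% in ZP3-rich and 15.4% in ZP3-poor small droplets, and 5 of 22 and 24 of 31 lay above 5%. The large droplets had medians of 3.41% and 8.39%. The median share of ribosomal protein genes was 12.5% in ZP3-rich and 4.05% in ZP3-poor small droplets at E85, and 9.26% and 6.03% in large droplets. Stromal UMIs were found in 15 of 22 ZP3-rich (68.2%) and 9 of 31 ZP3-poor (29.0%) small droplets at E85. The germ line genes outside the rule had medians of 3.30 and 6.20 per 1000, so the ZP3-poor droplets of E85 were the richer in them. The part of mitochondrial and ribosomal shares in the gene differences was not tested.

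At E125 the stromal transcripts lay on the other side. They were found in 9 of 39 ZP3-rich (23.1%) and 38 of 59 ZP3-poor (64.4%) small droplets, and summed to 72.5 CPM and 3147 CPM. MGP was at 36.2 and 953 CPM, and PTN at 36.2 and 1943 CPM. The germ line genes outside the rule had medians of 4.00 and 0.843 per 1000, and 1 and 23 droplets had none of them. The median mitochondrial shares were 1.52% and 3.18%, and the ribosomal shares 6.77% and 7.33%.

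**Figure D4:**
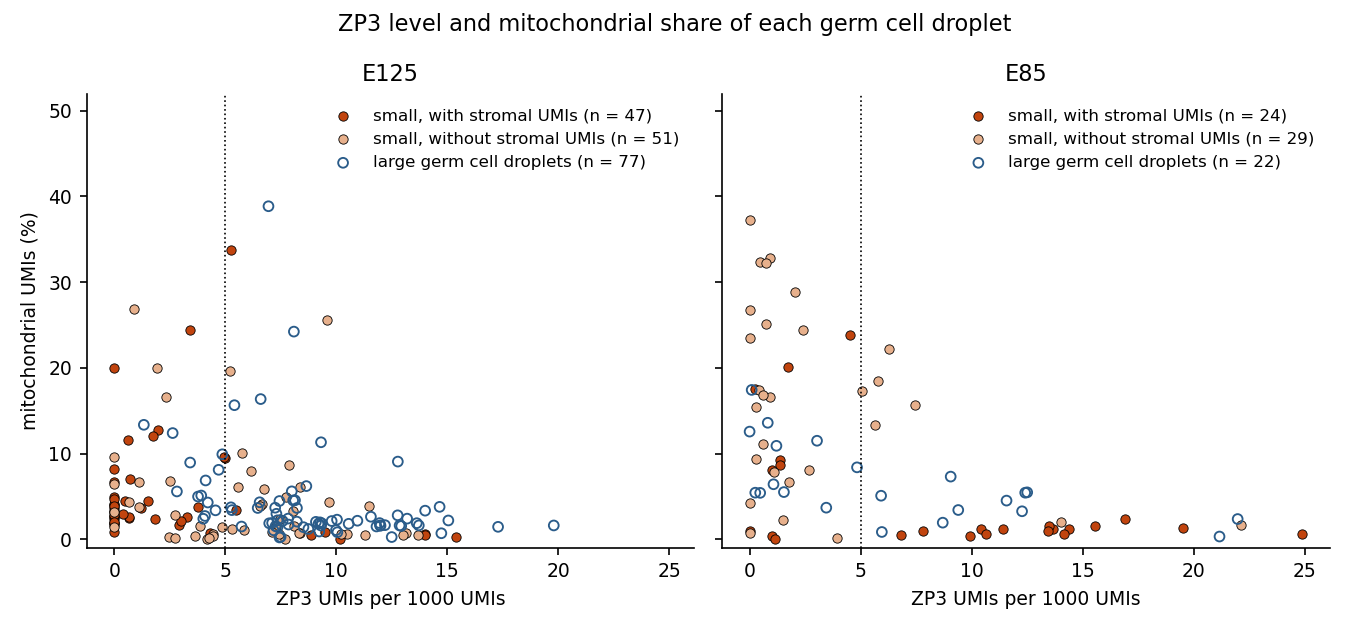
ZP3 UMIs per 1000 against the share of UMIs from the 13 mitochondrial genes (percent) in each germ cell droplet, E125 on the left and E85 on the right; filled points are small droplets, dark with and pale without stromal UMIs, open blue points are large droplets and the dotted line marks 5 ZP3 UMIs per 1000. At E85, 24 of 31 small droplets under the line exceed 5% mitochondrial UMIs, against 5 of 22 above it.

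Setting members apart by stromal UMIs alone gave a further view of the E125 library. The 47 small droplets with stromal UMIs had a median of 1.96 rule marker UMIs and 0.843 UMIs of the other germ line genes per 1000, and 17 of them had no UMI of those other genes. The 51 without had medians of 4.38 and 3.99 per 1000, and 7 had none. Of the 47, 30 rested on 2 of the 6 rule genes, against 22 of the 51. At E85 the 24 droplets with stromal UMIs had a median of 2.53 germ line UMIs per 1000 and zona genes at 11289 CPM, against 6.20 per 1000 and 2607 CPM in the 29 without. Their piRNA lists stood at 869 and 2601 CPM.

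Which programmes met in 1 droplet was described with ZP2 or ZP4 on one side and 11 meiotic genes (SMC1B, SYCP1, SYCP2, SYCP3, SYCE1, SYCE2, SYCE3, TEX12, SPATA22, REC114 and STAG3) on the other. At E125, 32 small droplets had UMIs of both, 19 of the zona genes only, 11 of the meiotic genes only and 36 of neither. The 36 had ZP3 at 1026 CPM, the piRNA list at 81.4 CPM and the stromal list at 4918 CPM. The 32 with both had ZP3 at 7192 CPM, the piRNA list at 1026 CPM and the stromal list at 158 CPM. In other barcodes these stood at 107, 46.5 and 3439 CPM. ZP3 in the 36 lay between the other barcodes and the 32. Their piRNA list lay nearer to the other barcodes, and their stromal list above both. This stromal level goes against the name germ cell, while their ZP3 was above that of the other barcodes. At E85, 16 had both, 6 the zona genes only, 27 (50.9%) the meiotic genes only and 4 neither. The 27 had ZP3 at 1460.1 CPM, REC8 at 33.3 CPM, the piRNA list at 2734 CPM and a median mitochondrial share of 16.9%. The 16 with both had ZP3 at 10661 CPM, REC8 at 937 CPM, the piRNA list at 1026 CPM and a median mitochondrial share of 1.29%. These classes depend on depth, which was a median of 4161 UMIs in the 27 and 3339 in the 16.

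Size within the small droplets also went with content. At E125, 56 members had under 2000 UMIs, 30 had at least 2000 but under 5000, and 12 had 5000 or more. The stromal list stood at 2899.8, 2306 and 259 CPM in these classes, the germ line genes outside the rule at 2375, 2929.9 and 4381 CPM, and the zona genes at 3977, 5754 and 9011 CPM. The larger members of E125 thus lay nearer to the large droplets in these 3 lists. At E85, with 12, 24 and 17 members, the zona genes stood at 7326, 7182 and 5325 CPM and the median mitochondrial shares at 1.43%, 7.40% and 17.4%. The germ line genes outside the rule stood at 5404, 4796 and 5325 CPM at E85.

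The last comparison set the small droplets of E125 against those of E85. Of 1680 measured genes, 402 (23.9%) were higher at E125 and 157 (9.35%) lower, with a median log2 ratio of 0.22. The higher genes made up 71.9% of the calls, 50.2% with TMM totals and 58.6% with DESeq2's size factors, which moved log2 ratios by -0.36 and -0.22. Any difference between the libraries as a whole enters this comparison, so levels or ratios in the other barcodes are given beside those in the small droplets for most of the lists and genes that follow.

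The summed levels of the piRNA, synaptonemal complex and meiotic cohesin lists were lower at E125, and that of the oocyte cytoplasm list higher, under all 3 scalings. The piRNA list summed to 691 CPM in E125 and 1923 CPM in E85 small droplets (ratio 0.36, 0.303 to 0.426; 0.28 with TMM totals), with 0 of 4 measured genes higher and 3 lower, against 46.5 and 65.6 CPM in the other barcodes of E125 and E85. The synaptonemal complex list summed to 245 and 487 CPM (ratio 0.50) from 67 and 129 UMIs, with 0 genes measured. The meiotic cohesin list summed to 724 and 1402 CPM (ratio 0.52), with 0 of 4 measured genes higher and 2 lower. In the other barcodes of E125 and E85 these 2 lists stood the other way round, at 51.1 and 31.7 CPM and at 739.7 and 595 CPM. The meiotic cohesin list was thus not raised in E125 small droplets. Its ratio to other barcodes was 0.98 (0.847 to 1.13) at E125 and 2.36 at E85. The oocyte cytoplasm list summed to 3391 and 1749 CPM (ratio 1.94, 1.73 to 2.17; 1.51 with TMM totals), with 2 of 7 measured genes higher and 0 lower, against 304 and 262 CPM in other barcodes. For the zona genes the ratio was 1.11, and 0.86 with TMM totals and 0.95 with DESeq2's size factors, so no direction is given. Mitochondrial genes summed to 6.74% of UMIs at E125 and 15.0% at E85, and the stromal list to 1595 and 691 CPM.

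Single germ line genes are given next. RNF17 had 47.6 CPM in E125 and 242 CPM in E85 small droplets, 5.08 times lower (2.77 to 10.1), with a ratio of 0.35 in the other barcodes and 0.30 in large droplets. SPATA22 had 29.3 and 159 CPM, 5.42 times lower (2.52 to 13.4), with ratios of 0.13 and 0.28 in other barcodes and large droplets. STK31 had 399 and 1115 CPM in E125 and E85 small droplets, against 6.48 and 17.9 CPM in other barcodes, and SMC1B had 157 and 472 CPM, against 3.78 and 9.36 CPM. On the higher side, H1-8 had 446 CPM at E125 and 178 CPM at E85, against 5.54 and 4.43 CPM in other barcodes. MOS, a kinase of meiotic arrest, had 311 and 90.7 CPM, against 5.54 and 1.48 CPM in other barcodes, and CCNO had 475.5 and 52.9 CPM, against 6.79 and 3.66 CPM. The order of STK31, SMC1B, H1-8, MOS and CCNO between the libraries was thus the same in other barcodes. BMP15, an oocyte growth factor, had 40.2 CPM at E125 and 0 UMIs at E85, where 3 UMIs would stand at 11.3 CPM. Its levels in other barcodes were 0.389 and 0.0641 CPM (15 UMIs and 1 UMI). GDF9, its close relative, had 2 UMIs at E125 and 1 at E85 in small droplets.

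Some of the genes with the highest ratios differed as much in the other barcodes. TAF10, a subunit of general transcription complexes, had 1123 CPM in E125 and 52.9 CPM in E85 small droplets, a ratio of 21.2 (12.5 to 39.3), and the ratio was 25.6 in other barcodes and 20.2 in large droplets. SMAP1 had ratios of 22.3, 20.9 and 14.7 in these 3 groups. UBFD1 had 636.5 CPM at E125 and 11.3 CPM (3 UMIs) at E85, a ratio of 56.2 (18.9 to 275), against 3.59 in other barcodes and 11.3 in large droplets. IGFBP2, a binding protein of insulin-like growth factors, had 512 CPM and 7.56 CPM (2 UMIs), a ratio of 67.8 (18.4 to 565), against 7.06 and 21.2. On the lower side, CHORDC1, a co-chaperone gene, had 58.5 and 434.5 CPM, 7.42 times lower (4.38 to 13.4), with a ratio of 0.76 in other barcodes and 0.20 in large droplets. GML had 25.6 and 351 CPM, 13.7 times lower (6.40 to 35.1), with ratios of 0.04 in other barcodes and 0.29 in large droplets.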

How the data were processed

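Single-cell RNA of fetal goat ovary was read in 1 library per stage (E125 and E85). The authors deposited whole-number UMI counts per gene and barcode, not normalized. Per the submitters' processing notes these came from Cell Ranger 3.1, while the count matrices name version 6.0.0 per the file headers. The kit was version 3.1, per the labels' protocols, whose text speaks of testes where the tissue and sex labels say ovary and female; the labels were followed. No label or header names the genome build or annotation (not given in the sources used here). Of 27271 features, 10655 (39.1%) carry no symbol, so genes such as NOBOX and ZP1 were not analysed here under a name, and no sequences are printed.

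From the deposited counts, barcodes were sorted by the rule of 500 genes, 20000 UMIs, 2 markers and 1 marker UMI per 1000. Members, lists and named genes were chosen with earlier results of these data known. UMIs were summed per group and scaled to CPM (numpy 2.4.6, scipy 1.17.1, pandas 2.3.3). Ratios carry exact conditional, sums exact Poisson and shares exact binomial (Clopper-Pearson) 95% intervals. No test was possible with 1 library per stage. A gene was measured at 50 UMIs over both groups, and sums of 3 UMIs or fewer were set to 3 in calls and medians but not in printed ratios; a log2 ratio that this would turn round was set to 0. Genes were ranked as the 15 highest and 10 lowest ratios against other barcodes, 8 and 8 against large droplets, and 10 and 10 between stages. Ranked genes had a symbol, 50 CPM in 1 group and, where members are higher, a UMI in 10% of members. The text names the 15 highest against other barcodes and only a part of the other ranks. Germ line list genes could be named too. Doublets were not removed: Scrublet (scanpy 1.11.5) at its own threshold called 0 barcodes at E125 and 2 at E85, so it had not worked. Scaling alternatives used edgeR 4.0.16 (TMM) and DESeq2 1.42.0 (size factors). The computations were tested on simulated data. UMI sums of 273373 and 264655 in members set the precision.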

Additional observations from a re-analysis of the deposited data

Results flagged for a closer look

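Barcodes with fewer than 500 genes lie outside every comparison. Of these, 30 of 701 at E125 (4.28%, 2.91 to 6.05) and 10 of 369 at E85 (2.71%, 1.31 to 4.93) met the marker rule in full apart from the number of genes. They had a median of 630.5 UMIs and 6.90% mitochondrial UMIs at E125, and 600.5 UMIs and 3.30% at E85. With 1 library per stage there was no group of samples in which a single sample could stand apart.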

How the results depend on the processing

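Every count of genes, the membership and the medians were recomputed with other limits, other scalings and fewer droplets. Of results on the comparisons as a whole, 135 recomputed values stayed within 1.5 times (counts) or within the spread over droplets (medians) and 41 moved. Of those chosen after seeing the data, 15 stayed and 5 moved. Of the other planned results, 1860 values stayed and 217 moved. Of the others not planned, 300 stayed, 2 moved and 1 turned round. Outside the comparisons as a whole, the most moves came with the mean over droplets (45 moved, 114 stayed). Next were 2 marker UMIs per 1000 (37 and 120) and large droplets kept among the other barcodes (35 and 40). Membership of 98 at E125 became 46 at 3 markers, 65 at 2 marker UMIs per 1000, 49 at 1000 genes and 47 without FIGLA. Membership of 53 at E85 became 35 at 3 markers, 26 at 2 per 1000 and 34 at 1000 genes. The median depth of 1886 UMIs at E125 became 2697 at 3 markers and 2788 at 1000 genes, and that of 3551 at E85 became 4748 at 1000 genes. The germ line median of 2.25 per 1000 at E125 became 3.81 at 3 markers and 3.48 at 2 per 1000.

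Against other barcodes, the 2824 higher genes of E125 became 479 with 10 UMIs asked at the pooled level. The 987 lower ones became 584 under 10000 UMIs, 1615 with TMM totals, 480 without the 10 largest members and 622 with large droplets kept among the others. The 1581 higher genes of E85 became 2893 with 1 UMI asked in each group and 341 with 10 UMIs. The 1435 lower ones became 716 at 2 per 1000, 854 at no more than 20% mitochondrial UMIs, 796 without the 10 largest members and 954 with 10 UMIs. The recombination list at E85 was the 1 result that turned round, from a median log2 ratio of 1.63 to -0.82 with 10 UMIs asked at the pooled level, which leaves fewer of its genes.

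Against large droplets, the 1404 higher genes of E125 became 2146 measured at 20 UMIs, 3194 with 1 UMI in each group and 179 with 10 UMIs. The 343 lower ones became 227 at 3 markers, 185 at 2 per 1000, 936 with the mean over droplets and 208 with 10 UMIs. The 121 higher genes of E85 became 340 with TMM totals, 329 with DESeq2's size factors, 284 at 20 UMIs and 771 with 1 UMI. The 1023 lower ones became 654 at 2 per 1000, 401 with TMM totals and 428 with DESeq2's size factors. Between stages, the 402 higher genes became 251 under 10000 UMIs, 245 at 2 per 1000, 1083 at 20 UMIs, 1907 with 1 UMI and 180 without the 10 largest members. The 157 lower ones became 284 with TMM totals, 351 at 20 UMIs, 719 with 1 UMI and 103 without the 10 largest members. The causes were not tested.

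Removing the barcodes with the highest Scrublet scores, 557 at E125 (6.67%) and 155 at E85 (3.53%), took out 3 members and 1 member and moved none of these results. Because Scrublet had not worked here and few members were removed, this cannot tell whether members are doublets. No paired analysis was possible because the labels give no replicate numbers and each stage has 1 library. Counts per droplet limit single genes: many members rest on a handful of UMIs.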

Other observations

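Unthinned, cell division genes were detected in 67.3% of small droplets, 100% of large droplets and 30.1% of other barcodes at E125. At E85 the shares were 92.5%, 100% and 25.5%. The list summed to 2059, 2145 and 779 CPM in these groups at E125, and to 3642, 2148 and 583 CPM at E85. CENPF, which encodes a kinetochore protein, supplied 155 of the 563 list UMIs of small droplets at E125 and 644 of 964 at E85. AURKB and CDK1 were at 0 in small droplets at E125, and KIF20A and PLK1 at E85. At E125, 1 droplet of 14129 UMIs held 73 of the 155 UMIs of CENPF (47.1%). At E85, 1 droplet of 4192 UMIs held 238 of 644 (37.0%), and without it the division list stood at 2722 CPM. The same droplets had 82 UMIs at E125 and 35 UMIs at E85 of the germ line genes outside the rule, and 0 UMIs of TOP2A.

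Small droplets with more than 20% mitochondrial UMIs at E85, 12 in number, had ribosomal protein genes at 35337 CPM and zona genes at 3097 CPM, against 86118 and 8149 CPM in the 41 others. KIT, the receptor of the KITLG signal from pregranulosa cells, stood at 234 CPM in small droplets, 135 CPM in large droplets and 30.5 CPM in other barcodes at E125, and at 132, 158 and 7.44 CPM at E85. Replication genes summed to 1803 CPM in small droplets, 1764 CPM in large droplets and 585 CPM in other barcodes at E125, and to 1050.4, 1649 and 566 CPM at E85.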
